A study of Sus scrofa with 8 samples.

Results

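The genes described here are the interleukins and interleukin receptors of the pig gene annotation that the authors edited for their single-cell study. Members were the protein-coding genes whose name is IL followed by a digit. There were 78 of them among 20679 protein-coding genes and 30390 genes in all. A gene with an R directly after its number was counted as a receptor, and every other gene as a ligand, which gave 39 ligands and 39 receptors by name.

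Interleukins are secreted proteins through which leukocytes and epithelial cells signal to each other. Most are small bundles of helices or beta-trefoil folds, and they act by bringing receptor chains together at the cell surface. Receptors of the IL-1 family signal through a TIR domain and MYD88, IL-17 receptors through the adapter TRAF3IP2, and most of the others through Janus kinases and STAT factors. In airways, IL-13 and IL-4 are known for driving mucus production, IL-17A and IL-22 for epithelial defence, and IL-1 and IL-6 for acute inflammation.

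The study profiled submucosal glands (SMGs) from the trachea of newborn pigs, 4 of them wild-type (WT) and the other 4 CFTR-/- (CF). CFTR is the anion channel lost in cystic fibrosis, and the CF animals carried the null genotype throughout the body. Glands were dissected from the epithelial layer and dissociated with collagenase, hyaluronidase, pronase and DNase, and each animal gave 1 droplet library in which reads come from the 3′ ends of transcripts. A single annotation on Sscrofa11.1, a genome of 1 Duroc pig, served all 8 libraries, so the values below are properties of gene models and not of WT or CF cells. Genes are not replicates, and many members are paralogs, so members were described by counts, medians and ranges beside the same over all protein-coding genes, with no test.

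In the transcript descriptions, 78 of 78 members had a product that begins with interleukin, which does not check the split into ligands and receptors. By the role of the protein, 36 were ligands, 39 were receptors, 2 were soluble binding proteins and 1 was an enzyme. IL6ST, the shared signalling chain gp130, is a receptor without an R in its name. IL18BP and IL22RA2 are secreted proteins that trap IL-18 and IL-22. IL4I1 is a secreted amino acid oxidase. A coding sequence starting with ATG was found in 77 of 78 members, the exception being IL21, and all 78 coding sequences ended with a stop codon. Members lay on 16 chromosomes, except IL1B2, a second IL-1 beta gene, which lay on an unplaced scaffold.

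Coding sequences of the IL-17 ligands are shown first because all 6 shared 1 intron plan, a short one that 105 other protein-coding genes also had. The family holds IL17A and IL17F, products of T helper 17 cells, the epithelial cytokines IL17C and IL25, and IL17B and IL17D. Each of the 6 had 3 coding exons, with a first intron between codons and a second intron after the second base of a codon. The lines give 15 coding bases on each side of intron 2, with the codon that the intron splits in capitals.

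IL17A: accatggactctcCAAcgcaacgaggaccc

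IL17F: cccctgggattacAACatcacccgggaccc

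IL17B: accctggggctacAGCatcaaccacgaccc

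IL17D: gccctgggcctacAGGatctcctacgaccc

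IL17C: tccctggagatacCGTgtggacacggatga

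IL25: cccttggagatacGAGttggacagagactt

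The introns lay at chr7:46014979-46016252 on the plus strand for IL17A, chr7:46059244-46060010 on the minus strand for IL17F, chr2:150541670-150543022 on the minus strand for IL17B, chr11:1030076-1064741 on the plus strand for IL17D, chr6:1024200-1024495 on the minus strand for IL17C and chr7:75711252-75713727 on the minus strand for IL25. Across the 6 genes, 9 of the 30 bases were identical, while the split codon differed in every gene, with 6 different codons. The genes thus shared the plan but not most of the letters around it.

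Ligands had shorter coding sequences than receptors. The median was 582 coding bases in ligands (quartiles 513 and 744) and 1632 in receptors (1270.5 and 2059.5), with 1221 over all protein-coding genes. In residues the medians were 193 and 543. A receptor was longer than a ligand in 92.6% of the 1521 ligand and receptor pairs, and in 97.0% of 1404 pairs when genes were split by role. All 39 receptors exceeded the ligand median, and 27 of 39 ligands were shorter than the shortest receptor.

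The shortest ligands were IL4, the cytokine of T helper 2 cells, at 402 coding bases, IL5, which supports eosinophils, at 405, and IL9 at 426. IL21 followed at 450 and IL17A at 462. The longest coding sequences under a ligand's name belonged to IL16 at 4158, IL6ST at 2817 and IL4I1 at 1734. IL16, a PDZ domain precursor from which the cytokine is cut, was the only secreted ligand by role above the receptor median. Next were IL12B, the p40 chain of IL-12 and IL-23, at 975 and IL1B at 849. These 5 were the upper end of the ligands, and 3 of them exceeded the receptor median.

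Among receptors the shortest were the IL-22 binding protein IL22RA2 at 696, IL2RA at 852, IL20RB at 915, IL15RA at 960 and IL1RL1 at 984. The longest were IL17RE at 2673, IL12RB2 at 2586, IL17RA at 2538, IL4R at 2496 and IL17RD at 2214. IL17RE is the receptor chain for IL-17C, and IL4R is the chain shared by IL-4 and IL-13. IL4R also had the most coding transcripts of any member with 15, followed by IL15 with 9, the decoy receptor IL13RA2 with 8 and IL4I1 with 7. A single coding transcript was annotated for 36 of the 78 members, beside 51.1% of all protein-coding genes.

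**Figure D1:**
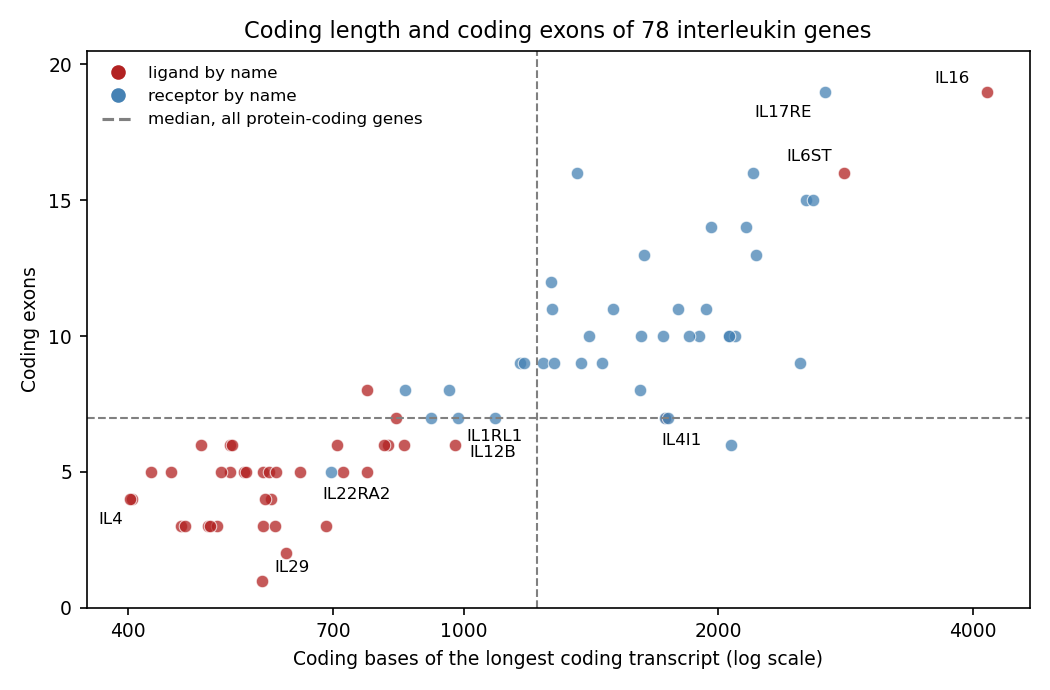
Each point is 1 of the 78 genes, with its coding bases on a log axis and its number of coding exons on the other axis. Dashed lines are the medians of all protein-coding genes (1221 bases and 7 exons); ligands fill the lower left, with IL16, IL6ST and IL4I1 as the exceptions among the receptors on the right.

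Receptors were also cut into more exons. Ligands had a median of 5 coding exons and receptors of 10, against 7 in all protein-coding genes. The range ran from 1 exon in IL29, an interferon lambda gene with no intron in this annotation, to 19 in IL16 and IL17RE. In IL17RE 4 of the gaps were under 10 bases long, and 15 coding exons were left when these were joined. The span of the gene, introns included, had a median of 7669 bases in ligands and 34797 in receptors. IL1RAPL1, an IL-1 receptor relative best known from synapses, spanned 1403038 bases of the X chromosome, and its neighbour in kind IL1RAPL2 spanned 1116804.

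The introns of ligands and receptors also differed in phase, the place where an intron falls within a codon. Phase 0 means between codons, phase 1 after the first base and phase 2 after the second. In ligands 104 of 169 coding introns (61.5%) were in phase 0, and in receptors 201 of 365 (55.1%) were in phase 1. Over all protein-coding genes the shares were 45.0% in phase 0 and 33.1% in phase 1. Of 29 ligands with at least 3 coding introns, 11 (37.9%) had every intron in phase 0, while none of the 39 receptors did. Of all such protein-coding genes 2.00% did. The groups were not matched for number of coding introns, and fewer introns make this easier to meet.

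The phase 0 ligands came from the helical families. The 8 ligands of the IL-10 family had 27 of 28 coding introns in phase 0, and the 7 ligands of the common gamma chain family with IL-13 had 23 of 25. IL-17 ligands had 6 of 12, with the other 6 in phase 2. IL-1 ligands, which fold as beta-trefoils, had 14 of 25 in phase 1. Phase thus varied among the ligand families. Chemokine ligands, a family with shorter coding sequences (median 310.5 bases) that was used for comparison, had 6 of 80 introns (7.5%) in phase 0.

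Written out from 5′ to 3′, the phases give a plan for each gene, in which gaps of under 10 bases between coding stretches were joined. Such gaps occurred in 6 members (IL12A, IL17RA, IL17RE, IL18RAP, IL20 and IL7R), with 11.3% of all protein-coding genes having at least 1. Shared plans were picked out once the values were known. The plan 0 0 0 0 was found in 8 ligands (IL10, IL19, IL20, IL21, IL24, IL26, IL28B and IL9) and in 66 protein-coding genes in all. IL22, IL23A, IL4 and IL5 had 0 0 0, which 142 genes had. IL6, IL11 and IL27 shared 1 0 0 0 with 25 other genes. IL1A, IL1B and IL1B2 shared 2 0 1 1 0 with 16 other genes.

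Plans of the IL-1 receptors were longer and rarer. Long plans of other members were rare too, with that of IL6R (9 introns) found in 1 gene. The plan 1 2 0 1 1 2 1 1 1 occurred in 6 of 20674 protein-coding genes, and all 6 were members: IL1R1, which binds IL-1, its partner IL1RAP, both IL-18 receptor chains IL18R1 and IL18RAP, IL1RAPL1 and IL1RAPL2. IL1RL2, the IL-36 receptor, held the same run after 1 further intron in phase 0. As a run it was found in 9 genes, 7 of them members, the others being C1H9orf84 and PKHD1. The shorter run 1 2 0 1 1 2 was found in all 9 IL-1 family receptors and in 47 genes in all. IL1R2, the decoy receptor that lacks a TIR domain, stopped 1 intron after this run, at 413 residues. IL1RL1, the IL-33 receptor, ended with it, at 327 residues and 7 coding exons, so that the annotated protein was the shortest of the 9.

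Class II receptors, the family of the IL-10 and interferon receptors, had another plan. The plan 1 2 1 0 1 0 was shared by IL10RA, IL10RB, IL20RB and IL22RA1 and by 7 other genes, namely the interferon receptor chains IFNGR1, IFNGR2 and IFNLR1 and the genes METTL5, RPRD1A, RPRD1B and TGFBR2. As a run, alone or within a longer plan, it was found in 150 genes. Among them were IL6R, IL12RB2, IL13RA2, IL27RA and IL31RA, which are not class II receptors. IL22RA2 carried the first 4 introns of the plan, and IL20RA the last 5. The splice junctions of intron 5, in phase 1, are shown for the 4 members with the complete plan, with the split codon in capitals.

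IL10RA: tgctcgccccccagTATttcactgtgacca

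IL10RB: agacgaccaatgacGAAaccacccccacct

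IL20RB: gtgtcaaggtgcaaGGAgagagcctgcccc

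IL22RA1: tgaagaccctgccaGATcgcacgtggacct

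These introns lay at chr9:45315813-45317974 and chr13:196869569-196875506 for IL10RA and IL10RB, both on the plus strand, at chr13:77976440-77979634 on the plus strand for IL20RB and at chr6:81871117-81873254 on the minus strand for IL22RA1. Of the 30 bases, 3 were identical in all 4 genes. As in the IL-17 ligands, the order of phases was shared while most letters were not.

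Receptors with the common gamma chain and those with gp130 relatives shared parts of plans. The run 1 2 1 0 1 2 0 was found in IL2RG, the common gamma chain itself, and in IL4R, IL7R, IL9R and IL21R, among 38 genes in all. IL21R and IL7R had the same complete plan as 4 other genes. These were CRLF2, EPOR and PRLR, the receptors for TSLP, erythropoietin and prolactin, and the placeholder LOC110257900. The run 1 1 1 1 1 2 0 joined IL6ST, IL12RB1, IL12RB2, IL27RA and IL31RA, among 86 genes. IL27RA and IL31RA had the same complete plan as 1 further gene, a placeholder described as the leukemia inhibitory factor receptor. IL12RB2 matched only CSF3R, the G-CSF receptor. IL2RA and IL15RA, the sushi domain chains that give IL-2 and IL-15 their specific binding, shared 1 1 1 1 1 1 2 with 6 other genes. The 3 genes in the annotation with the run 0 1 1 0 1 1 0 0 1 1 were IL17RA, IL17RB and IL17RD.

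**Figure D2:**
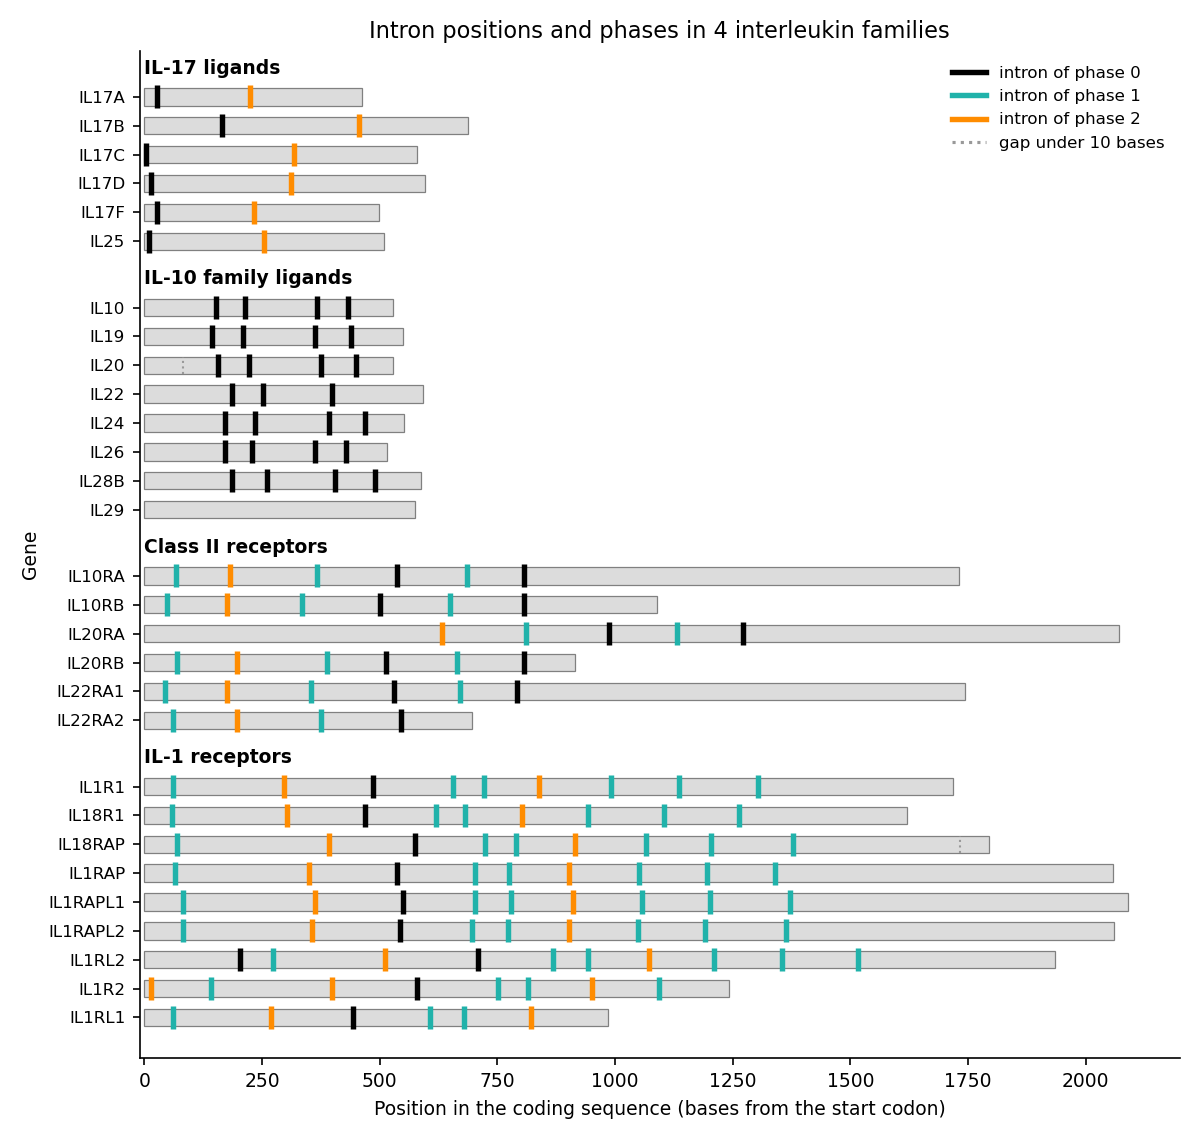
Coding sequences of 29 genes are drawn as bars from the start codon in bases, with a coloured line at each coding intron (black phase 0, green phase 1, orange phase 2). All 6 IL-17 ligands show black then orange, and all introns of the IL-10 family ligands are black apart from the small gap in IL20 (dotted), while IL29 has no intron. IL1RL1 and IL1R2 end before the last introns of the other IL-1 receptors.

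Members often lay side by side. With members joined when at most 500 kb apart, 33 of 78 fell into 13 clusters, 16 ligands and 17 receptors by name. For comparison, 13.3% of protein-coding genes named with letters and a number had another gene of the same letters within that distance. A cluster held 1 name class in 12 of 13 cases and 1 receptor or ligand family in 12 of 13. The exception by class was IL31RA with IL6ST, which are both receptors by role. The exception by family was IL5, IL13 and IL4 on chromosome 2. No other protein-coding gene reached into the gaps of 11 clusters, and the members of 9 lay on 1 strand.

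The largest cluster held 6 IL-1 family receptors in a row on the minus strand of chromosome 3, at 51762111 to 52406393. In order of coordinate they were IL18RAP, IL18R1, IL1RL1, IL1RL2, IL1R1 and IL1R2, over 644.283 kb with no other protein-coding gene in the gaps. The gaps ran from 8.83 kb between the IL-18 receptor chains to 181.304 kb between IL1RL2 and IL1R1. The ligands IL1B and IL1A lay on the same chromosome at 43670126 to 43731668, 41.194 kb apart. The second largest by members was the IL-10 family cluster on chromosome 9 (67400727 to 67532407), with IL10, an inhibitor of inflammation, on the minus strand and IL19, IL20 and IL24 on the plus strand.

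The T helper 2 cytokines IL5, IL13 and IL4 spanned 162.223 kb of chromosome 2 (134832143 to 134994365). IL13 and IL4 were 10.144 kb apart, and IL5 was 125.957 kb from IL13, with SLC22A5, RAD50 (a DNA repair gene) and KIF3A reaching into the gap. The annotated span of KIF3A, on the minus strand from 134932339 to 135069408, covered both IL13 and IL4. IL21 and IL2 were 100.225 kb apart on chromosome 8 (101532742 to 101645683), IL17A and IL17F 41.209 kb apart on chromosome 7 (46013584 to 46066039) and IL26 and IL22 16.243 kb apart on chromosome 5 (32568189 to 32604507).

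The other receptor clusters were pairs. IL17RE and IL17RC, which form the IL-17C and IL-17A receptors with IL17RA, were the closest at 1.33 kb on chromosome 13 (66164492 to 66194750). IL2RA and IL15RA were 20.906 kb apart on chromosome 10 (64948149 to 65054385). IL31RA and IL6ST were 29.936 kb apart on chromosome 16 (34987399 to 35151832). IL21R and IL4R were 37.141 kb apart on chromosome 3 (19447488 to 19576792). IL12RB2 and IL23R, the chains particular to IL-12 and IL-23, were 45.365 kb apart on chromosome 6 (145210251 to 145401909), with 2 other protein-coding genes reaching into the gap. IL22RA2 and IL20RA were 46.909 kb apart on chromosome 1 (27073481 to 27172341).

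**Figure D3:**
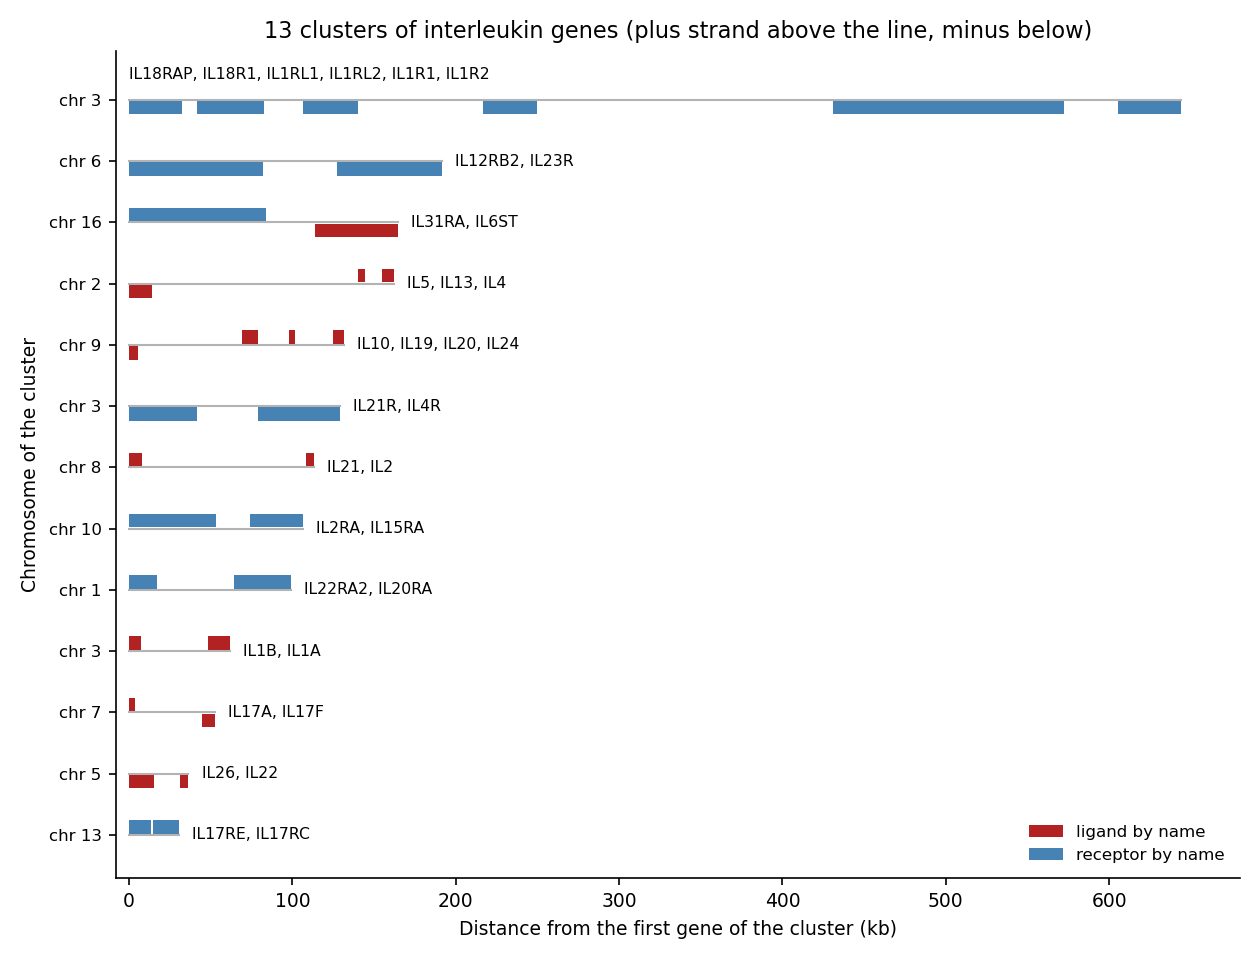
The 13 clusters are drawn to scale in kb from the first gene of each, with plus strand genes above the line and minus strand genes below. The 6 IL-1 receptors on chromosome 3 form the longest row, and the only row with both colours is IL31RA with IL6ST.

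The models of 3 members, IL10RB, IL13RA1 and IL17B, had been edited by the authors, and 1.15% of protein-coding genes found in both annotations had been. The paper states that only genes expressed in airways were checked by hand, and its share of edited genes among those checked was higher. Which members were checked is not known here. IL10RB is the chain that IL-10, IL-22, IL-26 and the lambda interferons share, and IL13RA1 pairs with IL4R to bind IL-13. Both had 1 coding transcript that ended at its stop codon in the reference. The last 30 coding bases, the end of the old models, are printed with the stop codon in capitals, and the last 30 bases of the new models with the poly(A) signal in capitals.

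IL10RB old end: gaccagtatacaagggacgaggccaccTGA

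IL10RB new end: ggtgctctATTAAAgttttattctctattt

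IL13RA1 old end: atagaaagcctgaagagagccgctcagTGA

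IL13RA1 new end: gtaaAATAAAtattgtctttttgtatgtca

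On the plus strand of chromosome 13, the end of IL10RB moved from 196884237 to 196884929, and its 3′ UTR went from 0 to 692 bases. On the plus strand of the X chromosome, the end of IL13RA1 moved from 97353754 to 97356131, and its 3′ UTR went from 0 to 2377 bases. The 4 stretches lie at chr13:196884208-196884237, chr13:196884900-196884929, chrX:97353725-97353754 and chrX:97356102-97356131. The hexamer began 22 bases before the new end in IL10RB and 26 bases before it in IL13RA1, and neither AATAAA nor ATTAAA was in the last 50 bases of the old models. The added stretch made up 38.9% of the exon bases of IL10RB and 65.1% of those of IL13RA1. After editing, IL13RA1 ranked 8 and IL10RB ranked 23 among the 39 receptors by 3′ UTR length.

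IL17B was edited in the other direction. In the reference the gene had 19 transcripts, of which 18 were noncoding, and it reached down to 150513611 on the minus strand of chromosome 2. In the deposited annotation 1 coding and 1 noncoding transcript remained, and the 3′ end lay at 150541251. The span went from 70030 to 42390 bases and the exon bases from 17189 to 2753. Its coding transcript and 3′ UTR of 187 bases were the same in both. The stretch that was removed ran over part of GRPEL2 and the whole of PCYOX1L, which lie on the plus strand. IL17B shared 0 exon bases with a gene on its own strand before and after the edit.

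Over all members, the 3′ UTR was longer in receptors, but the classes overlapped widely. The median was 546 bases in ligands (quartiles 164 and 1060) and 892 in receptors (428 and 2216). It was 725 over all protein-coding genes and 916 over those not named as LOC placeholders, so receptors were not above the latter. A receptor had the longer 3′ UTR in 63.9% of pairs. Of the families, receptors of the IL-6 and IL-12 group had the longest median at 2345 bases, and common gamma chain ligands with IL-13 had a median of 108 bases. The longest were IL17RD, a brake on FGF signalling, at 6708, IL31RA, the itch receptor chain, at 5605, IL1RAPL1 at 5450, IL12RB2 at 3924 and IL6R at 3798. A coding transcript of IL5RA, the IL-5 receptor chain, that ends farther upstream had 7291 bases, while the one used here had 1571. Under a ligand's name the longest were IL18BP at 4982, IL6ST at 4028, IL31 at 2727, IL13 at 1925 and IL33, an epithelial alarmin, at 1909. IL18BP had 18 bases in its transcript with the most coding bases.

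A 3′ UTR of under 100 bases was annotated in 11 of 78 members, beside 15.6% of all protein-coding genes. These were 8 of the 39 ligands and 3 of the 39 receptors. No 3′ UTR at all was annotated for IL17RC, IL17RE, IL21, IL23A, IL28B and IL29, while 8.88% of all protein-coding genes, and 2.42% of those not named as LOC placeholders, had none. IL4I1 had 16 bases, IL4 65, the inflammasome product IL18 86, IL9 96 and IL13RA2 97. IL1R2 and IL17RA were the next shortest receptors with 167 and 231 bases. In the reference, 8 members had no 3′ UTR, and 2 of these 8 were the elongated IL10RB and IL13RA1. IL17RC, IL21, IL23A, IL28B and IL29 had neither a 5′ nor a 3′ UTR. Reads of the libraries come from 3′ ends, and the counts of these genes were not analysed here.

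**Figure D4:**
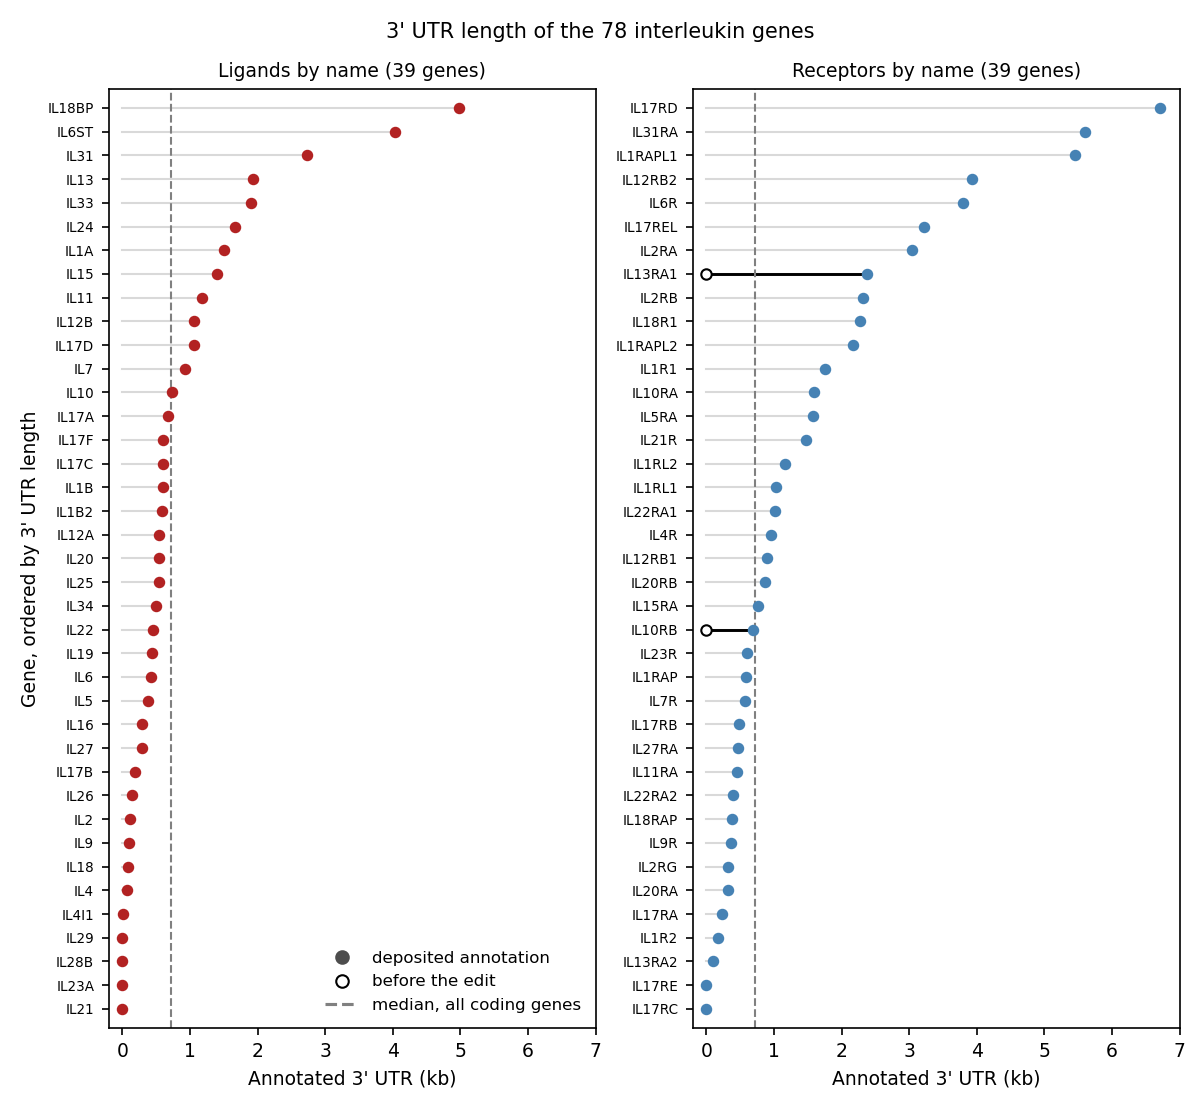
The annotated 3′ UTR of each of the 39 ligands and 39 receptors is plotted in kb, with open circles for lengths before the edit and a dashed line at the median of all protein-coding genes (725 bases). IL10RB and IL13RA1 are the 2 members whose length moved, from 0 to 692 and from 0 to 2377 bases, and 6 members sit at 0.

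A poly(A) signal, AATAAA or ATTAAA on the sense strand, was in the last 50 bases of 45 of 78 members (57.7%). The same window held one in 60.9% of all protein-coding genes and in 69.9% of those not named as LOC placeholders. Among the 11 members with under 100 bases of 3′ UTR, 2 had a signal there, beside 22.9% of all protein-coding genes with so short a 3′ UTR. Among the other 67 members, 43 had one, beside 67.9% of the other protein-coding genes. In a 3′ UTR of under 50 bases, this window takes in coding sequence.

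AU-rich elements are known as marks of unstable cytokine transcripts, and their core is the pentamer ATTTA. At least 3 copies on the sense strand, overlaps counted, were present in 23 of the 35 ligands with a 3′ UTR (65.7%) and in 11 of the 37 such receptors (29.7%), beside 34.0% of all protein-coding genes with a 3′ UTR. At least 1 copy was present in 29 of the 35 ligands and 24 of the 37 receptors, beside 61.1% of all protein-coding genes. Pooled over bases, the density was 4.63 per kb in ligands, 1.56 in receptors and 2.03 in all protein-coding genes. Pooled A and T content was close, at 54.3%, 53.6% and 55.7%. Per gene, however, the median A and T content was 60.4% in ligands and 51.9% in receptors, and its part in the difference was not tested.

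Stretches of 30 bases with the most pentamers are shown for 6 ligands and for IL10RA, with every ATTTA in capitals. The choice was made with the values known.

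IL1B: cactgaactATTTATTTATTTATTTATTTA

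IL2: ATTTATTTAaatATTTAaattttatATTTA

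IL12B: ATTTAaatATTTAagtaATTTAtgtATTTA

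IL12A: agcctaATTTAttttttaagtATTTATTTA

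IL11: cttcaaagccagttcttATTTATTTATTTA

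IL17A: ATTTAtttgaactATTTAtggatctATTTA

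IL10RA: gtttATTTAttgattttgttcATTTATTTA

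They lie at chr3:43676856-43676885 (IL1B), chr8:101645615-101645644 (IL2), chr16:64158101-64158130 (IL12B), chr13:99740923-99740952 (IL12A), chr6:59541601-59541630 (IL11), chr7:46016859-46016888 (IL17A) and chr9:45324283-45324312 (IL10RA). All were on the plus strand except IL11. IL1B held 5 overlapping copies in its 30 bases, and IL2 and IL12B held 4 each.

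By number of pentamers, the ligand names led with IL6ST at 21 in its long 3′ UTR, then IL12B at 12, the T cell cytokine IL31 at 9, and IL12A, IL1A, IL1B and IL20 at 8 each. By density the first were IL4 with 46.2 per kb, IL2 with 37.0 and IL9 with 31.3, all with a 3′ UTR of at most 108 bases that holds 3 or 4 copies. All 6 ligands of the IL-6 and IL-12 group with a 3′ UTR had at least 3 copies, and 1 of the 6 IL-17 ligands did, namely IL17A with 7. Among receptors the most were in IL1RAPL1 at 23, IL17RD at 10, IL1RAPL2 at 9, IL13RA1 at 6, and IL18R1 and IL31RA at 5. All 6 copies in IL13RA1 and both copies in IL10RB stood in sequence added by the edit.

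The longer motif TTATTTATT, which contains the pentamer, was in 9 ligands (IL11, IL12B, IL13, IL1B, IL1B2, IL20, IL27, IL31 and IL9) and in 1 receptor, IL10RA. It was in 6.54% of all protein-coding genes with a 3′ UTR. These are matches of letters only, and no protein was shown to bind them.

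**Figure D5:**
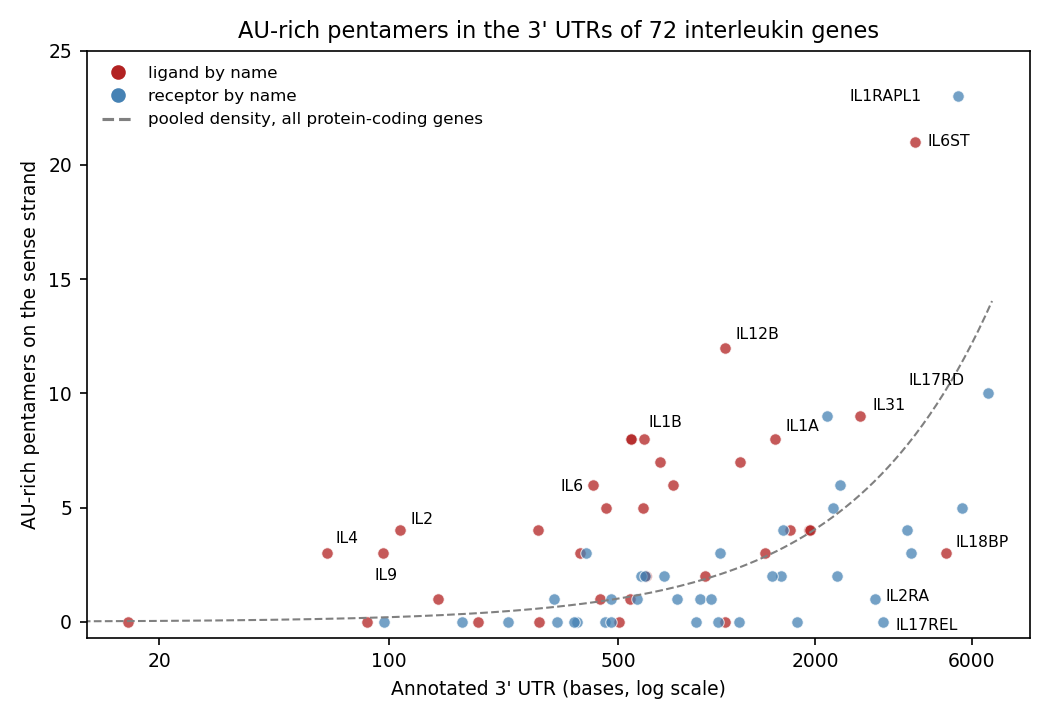
Each point is 1 of the 72 members with a 3′ UTR, with its length on a log axis and its count of the AU-rich pentamer on the other. The dashed line is the pooled density of all protein-coding genes (2.03 per kb); 23 ligands and 11 receptors have at least 3 copies, and IL4, IL2 and IL9 reach 3 or 4 in very short 3′ UTRs.

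Exon bases were shared with a gene on the same strand by 2 members, beside 3.36% of all protein-coding genes. IL18BP shared 825 bases with RNF121, a ubiquitin ligase gene, and IL4I1 shared 121 with NUP62, a nuclear pore gene. On the opposite strand 12 of 78 members shared exon bases, beside 17.1% of all protein-coding genes. Here the largest were IL34 with MTSS1L at 2056 bases, IL18BP with NUMA1 at 1801, IL24 with FCMR at 1464 and IL17D with EEF1AKMT1 at 1345. IL23A, which has no annotated 3′ UTR, shared 309 bases with STAT2.

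Spliced words of 90 bases that recur in another gene were found in 5 of 78 members, beside 15.3% of all protein-coding genes. IL28B, an interferon lambda gene on chromosome 6, shared 100% of its 499 words with 1 other gene, a placeholder described as interferon lambda-3-like on the same chromosome, so that the 2 genes could not be told apart by these words. IL1B2 shared 42.5% of its words and IL1B 12.4%, with each other and with 6 placeholder genes described as interleukin-1 beta-like on unplaced scaffolds. In the last 500 bases the shares were 5.35% in IL1B2 and 3.65% in IL1B. The other members were IL18BP at 8.54% and IL4I1 at 1.63%, through RNF121 and NUP62.

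Of 48 other genes of interleukin signalling that were listed by role, 43 were matched by symbol. Among 9 cytokines under another name, 6 had at least 3 ATTTA, with 11 in CXCL8 (the neutrophil chemokine IL-8) and 11 in the 328 bases of CSF2, the gene of GM-CSF. CSF2 and IFNG also had the plan 0 0 0 of IL4 and IL5. Among 11 receptors under another name, 3 had at least 3 copies. Their median 3′ UTR was 1115 bases, beside 392 in the cytokines. STAT factors had a median of 1628, Janus kinases of 1322.5, the adapters and kinases of IL-1 and IL-17 signalling of 1002 and SOCS inhibitors of 727. JAK2, JAK3 and TYK2 shared 1 plan of 23 coding exons. A 3′ UTR of under 100 bases was seen in 4 of the 43, with 0 in CISH and IRAK4, 8 in MYD88 and 37 in TSLP. Edited models were found for 3 of the 43, SIGIRR, STAT3 and TOLLIP, beside 1.15% of protein-coding genes found in both annotations.

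Several of these genes flanked members within 500 kb. IL10RB began 0.965 kb after IFNAR2 and was followed by IFNAR1 at 40.801 kb and IFNGR2 at 122.373 kb, all class II receptors on the plus strand of chromosome 13. IL22RA1 and IFNLR1 were 8.979 kb apart on chromosome 6, and IFNGR1 lay 12.385 kb from IL22RA2 on chromosome 1. IFNG lay 85.518 kb from IL26 on chromosome 5. In all, 13 of 78 members had a gene of the list within this distance, beside 3.62% of protein-coding genes outside the list, which was itself chosen for its relation to interleukins. Of the 13, 7 were in the clusters above.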

How the data were processed

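Tracheal SMGs of 4 WT and 4 CFTR-/- newborn pigs were profiled by 3′ single-cell RNA sequencing, with 1 library per animal. The file used here is the gene annotation that the authors deposited. The authors modified RefSeq models on Sscrofa11.1 (3′ UTRs added or elongated, overlaps reduced, genes renamed) and used the result as the reference for Cell Ranger (3.0.2 in the submitters' processing notes). Its values are exon and coding coordinates counted from 1, so a longer or shorter model changes which reads a gene is given. No count matrix was analysed here, so sequencing depth is not known.

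Coding length, coding exons and intron phase were read from the transcript with the most coding bases (stop codon included), and the 3′ UTR from the coding transcript whose end lies farthest downstream. RefSeq models of the same build gave the lengths before the edits. Motifs were searched on the sense strand of the reference genome. Members were joined into clusters at up to 500 kb. Copies of members were searched with words of 90 bases. Of 20679 protein-coding genes, 20674 had a coding transcript and formed the background. No test was run, since no value belongs to a sample. The tools were matplotlib 3.10.9, pysam 0.24.0, scipy 1.17.1, numpy 2.4.6 and Python 3.11.15. On 200 simulated gene models, the measures passed 1000 of 1000 checks.

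The members and the lists of roles and pathway genes were chosen with earlier results of these data known. The genes named are edited members, cluster members, the 5 longest and 5 shortest of each class by coding length and 3′ UTR, members under 100 bases of 3′ UTR, members sharing same-strand exon bases, the 5 of each class with the most ATTTA, the 5 members with the most coding transcripts and those whose role is not that of their name. Any other gene was named with its values known. Alternatives changed the split, the transcript, the distance, the motif, the window and the overlap; the joining of gaps under 10 bases was added after seeing the data.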

Additional observations from a re-analysis of the deposited data

How the results depend on the processing

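No paired analysis was possible because 1 set of gene models served all 8 libraries. Of 25 alternatives over 9 results, 16 stayed at or near the reported value, 9 moved and 0 reversed a direction. A difference of medians was taken as moved at any change, a count when it changed by over 1.5 times, and a share when it left its 95% binomial interval. The difference of medians in coding length (receptors minus ligands, 1050 bases) was 1140 when genes were split by role and 1053 in the transcript that ends farthest 3′. The difference in coding exons (5) was 6 when noncoding exons were counted. The difference in 3′ UTR length (346 bases) was 417.5 by role, 214 in the transcript with the most coding bases, 416 with the longest 3′ UTR of any coding transcript and 316 in the reference before the edits. With 1 TTATTTATT in place of 3 ATTTA, 9 ligands qualified instead of 23. With introns included, 4 members instead of 2 shared bases with a gene on the same strand.

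All values are limited by the gene models. A missing 3′ UTR says only that none was annotated, and the expression of the members was not analysed here. The authors chose their edits by looking at read alignments, and the paper states that each edit also had to refer to an existing annotation. Which members were edited, and by how much, thus rests on reads and other annotations not analysed here. The edited members had no alternative.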

Other observations

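Some genes of the system lay outside the naming rule. IL3RA, the IL-3 receptor chain, was annotated as a long noncoding RNA on an unplaced scaffold, with 7 transcripts of 11 to 13 exons and 0 coding transcripts. IL-15L, a gene related to IL15, was protein-coding with 3 exons on chromosome 6.

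Among families set beside the interleukins, 30 chemokine ligands had a median of 310.5 coding bases and a median 3′ UTR of 336.5 bases, and 5 of the 28 with a 3′ UTR (17.9%) had at least 3 ATTTA. The 10 Toll-like receptors, which signal through the same TIR domain as the IL-1 receptors, had a median of 2547 coding bases in a median of 2 coding exons (1 when gaps under 10 bases were joined), beside 1794 bases in the 9 IL-1 family receptors, whose plans held 6 to 10 introns.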
